A study of Canis lupus familiaris with 18 samples.

Results

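The transcripts described here are ITGB1, ITGAV, VIM and MMP2, which couple the mesenchymal cell to its matrix, give it its intermediate filaments and degrade the matrix. They are 4 of the 84 genes on a dog mesenchymal stem cell RT-qPCR array and were chosen by gene symbol, without use of their values. The array design names their transcripts XM_005616948 (ITGB1), XM_014110784 (ITGAV), NM_001287023 (VIM) and XM_014109407 (MMP2). Integrins are receptors of an α and a β chain that bind extracellular matrix outside the cell and actin-linked adhesion complexes inside it. ITGB1 encodes the β1 chain (CD29), the common partner of many α chains and a surface marker by which mesenchymal stem cells are identified. ITGAV encodes the αV chain, which pairs with β1 and with other β chains, binds vitronectin and other ligands that carry the Arg-Gly-Asp motif, and activates latent TGF-β. VIM encodes vimentin, the intermediate filament protein of mesenchymal cells. MMP2 encodes gelatinase A, a secreted protease that degrades type IV collagen and denatured collagen.

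The samples were mesenchymal stem cells of dog adipose tissue (cAD-MSCs), plastic-adherent cells grown from the collagenase-digested abdominal fat of healthy female dogs of differing age and breed. Each of 9 donors gave 1 culture, from which RNA was taken at passage 3 (P3, the control group) and again at passage 6 (P6, the test group), so that 18 samples formed 9 pairs. No dog or culture received a treatment, and all cultures were grown in low-glucose medium with serum and harvested near confluence. The comparison asks how expression differed after further in vitro passaging, the study's model of in vitro aging.

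The measurement was the threshold cycle (CT), the cycle at which a well's fluorescence crossed a set line, with 1 well per gene and sample. Expression is given as −ΔCT, the geometric mean CT of 5 reference genes (ACTB, B2M, HPRT1, PGK1 and RPL13A) minus the CT of the gene in the same sample, on a log2 scale on which a difference of 1 is 2-fold at full amplification per cycle. All 72 wells of the 4 genes crossed the threshold, the latest at 23.68 cycles, against a CT limit of 35. Per sample, 75 to 81 of the 84 genes were detected at P3 and 72 to 77 at P6. The mean reference CT was 14.85 ± 0.508 (SD, n = 9) at P3 and 14.65 ± 0.321 (SD, n = 9) at P6. An exact permutation test that did not use the donor pairs called no difference (two-sided, p = 0.344). The genomic DNA control well was undetermined in 18 of 18 samples, and the 3 wells of a control within 1 sample differed by at most 0.37 cycles. The labelled cell type was checked against the MSC markers THY1, ENG, NT5E and CD44, which were detected in 35 of 36 wells at P3 and 36 of 36 at P6. This detection does not tell cell types apart, since other marker sets were detected as widely. At P3 the mural markers ACTA2, MCAM and PDGFRB were detected in 27 of 27 wells. The endothelial markers VWF and KDR were detected in 18 of 18, and the adipocyte markers ADIPOQ, LPL and PPARG in 27 of 27. At P6 these counts were 27 of 27, 17 of 18 and 23 of 27. The median summed level relative to the reference genes at P3 was 0.542 for the MSC markers and 1.56 for the mural markers. It was 0.0021 for the endothelial and 0.00117 for the adipocyte markers. At P6 these medians were 0.685, 0.961, 0.00193 and 0.00152, and the highest P6 sample reached 5.73 for endothelial and 189 for adipocyte markers. The leukocyte markers PTPRC and ITGAX were detected in 17 of 18 wells at P3 and 7 of 18 at P6. Their median summed level relative to the reference genes was 0.000163 (range 2.67e-05 to 0.0104) at P3 and 8.23e-06 (range 1.04e-06 to 2.13e-05) at P6, undetected wells being counted at the CT limit. The part of this difference in the values below was not tested.

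None of the 4 transcripts differed between P3 and P6 beyond the spread between donors. VIM was close to level in every donor. ITGB1 and ITGAV were close to level in most donors, and the mean difference of each rested largely on 1 well. MMP2 differed widely between donors in both passages and moved in both directions within donors. Over the whole array, limma with Benjamini-Hochberg adjustment called 1 of 84 genes (1.19%), which was lower at P6, and 0 of the 4. At an unadjusted p under 0.05 it called 5 of 84 genes (5.95%), all lower at P6 and again with 0 of the 4. A difference of at least 2-fold between the means was found in 31 of 84 genes (36.9%), of which 10 were higher and 21 lower at P6. Of the 4 genes, 1 had such a difference, MMP2, which is no larger a share than that of the array. In bulk cultures, fewer cells of a type and less RNA per cell cannot be told apart.

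**Figure D1:**
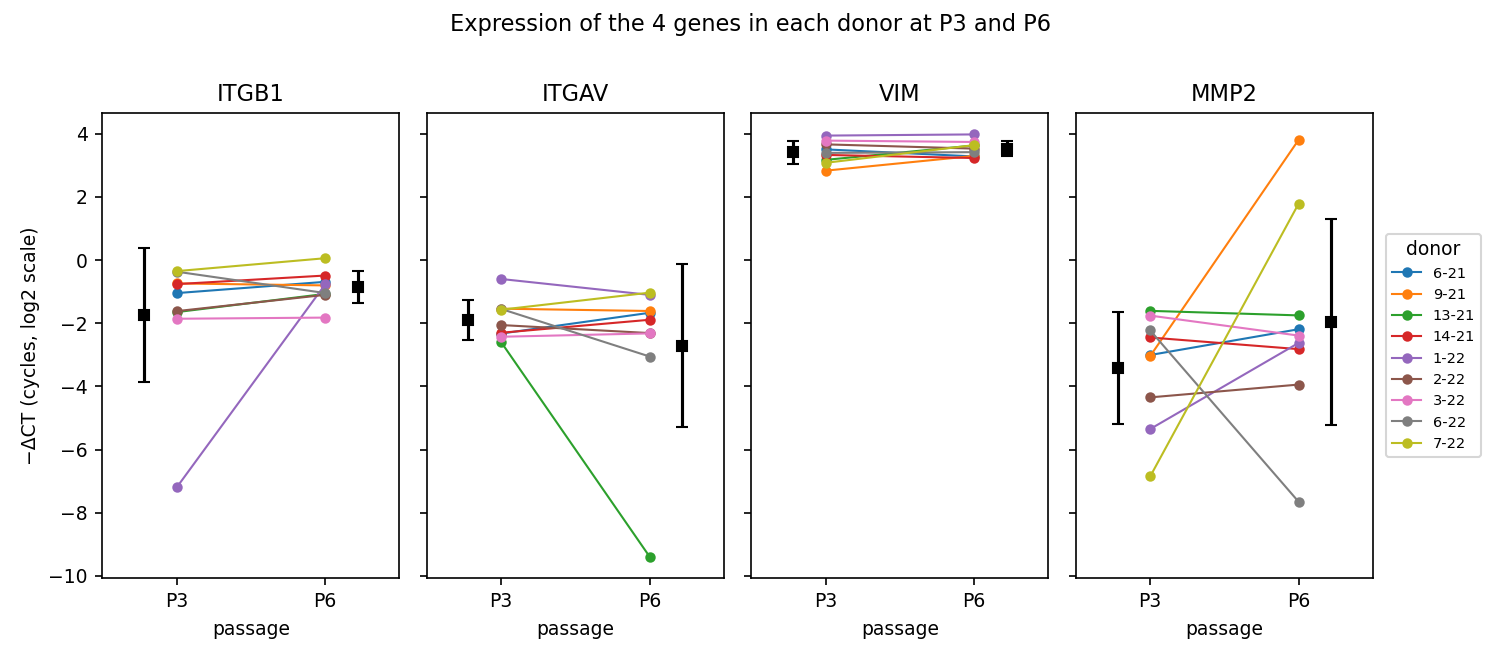
Expression of ITGB1, ITGAV, VIM and MMP2 as −ΔCT (cycles, log2 scale) at P3 and P6, with a coloured point and line for each of 9 donors and black squares for the mean ± SD. VIM lies between 2.83 and 3.98 in every sample, ITGB1 has 1 low point at P3 (−7.20, donor 1-22), ITGAV has 1 low point at P6 (−9.39, donor 13-21), and the MMP2 lines cross.

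ITGB1, the shared β1 chain, was detected at 14.46 to 22.91 cycles at P3 and at 14.07 to 16.4 cycles at P6. Its −ΔCT at P3 was lowest at −7.20, with a median of −1.05 and a highest value of −0.35. At P6 the lowest value was −1.82, the median −0.80 and the highest 0.06. The low value at P3 came from donor 1-22, and the other 8 donors at P3 lay within the span of the P6 samples or close to it, so the groups overlapped. The mean was −1.73 ± 2.12 (SD, n = 9) at P3 and −0.86 ± 0.510 (SD, n = 9) at P6, a difference of 0.87 (SE 0.720, 95% interval −0.64 to 2.39; limma, adjusted p = 0.873), with 7 of 9 donors higher at P6.

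The well of donor 1-22 at P3 had an ITGB1 CT of 22.91, whereas the same culture had a CT of 15.89 at P6, a within-donor difference of 6.43 or 86.1-fold. Relative to the mean of the other 8 donors at P3, which was −1.05 ± 0.594, this well lay at −6.15. By −ΔCT the other 3 genes also lay toward the ends of their P3 values in this sample. ITGAV (−0.60) and VIM (3.94) had their highest −ΔCT at P3 there, and MMP2 (−5.35, at its latest P3 CT of 21.06) had its second lowest. The mean reference CT of this sample, 15.71, was the latest at P3, which raises every −ΔCT of the sample. By CT, VIM was at its latest P3 value (11.77), and ITGAV (16.31) lay within its P3 values of 15.68 to 17.83. In the other 8 donors ITGB1 stayed within 2-fold between the passages. Without this donor the difference was 0.18 (SE 0.339, 95% interval −0.54 to 0.90; limma, adjusted p = 0.909), and without this well alone it was 0.19. The difference of the medians, which 1 well moves little, was 0.24.

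ITGAV, the αV chain, was detected at 15.68 to 17.83 cycles at P3 and at 15.16 to 23.68 cycles at P6. Its −ΔCT at P3 ran from −2.60 through a median of −2.06 to −0.60. At P6 it ran from −9.39 through a median of −1.89 to −1.03. The lowest P6 value came from donor 13-21, and the remaining P6 samples overlapped the P3 samples. The mean was −1.88 ± 0.631 (SD, n = 9) at P3 and −2.71 ± 2.58 (SD, n = 9) at P6, a difference of −0.82 (SE 0.865, 95% interval −2.64 to 0.99; limma, adjusted p = 0.873). ITGAV was lower at P6 in 5 donors and higher in 4, and the difference of the medians had the opposite sign, at 0.17.

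In donor 13-21 the ITGAV CT was 17.04 at P3 and 23.68 at P6, a within-donor difference of −6.79 or 111-fold. Relative to the mean of the other 8 donors at P6, which was −1.87 ± 0.676, this well lay at −7.52. The ITGB1 CT in that sample was 15.36 and its VIM CT 10.66, both within the range of the other P6 samples. Donor 6-22 had the next largest within-donor difference, at −1.51 or 2.84-fold, and the other 7 donors stayed within 2-fold. Without donor 13-21 the difference was −0.08 (SE 0.375, 95% interval −0.87 to 0.72; limma, adjusted p = 0.959), and without its P6 well alone it was 0.01, with 4 of the other donors higher and 4 lower.

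Across the array, a sample that stood apart from the other 8 of its passage was common. By Dixon's criterion at the 95% level this was so in 40 of 168 gene and passage groups (23.8%). The P3 sample of donor 1-22 stood apart in 2 of 84 genes, ITGB1 and the drug efflux pump ABCB1, the latter at a higher level than in the other donors. The P6 sample of donor 13-21 stood apart in 2 of 84 genes as well, ITGAV and the stress-induced cytokine GDF15, both lower than in the other donors. Most other genes of these 2 samples thus did not stand apart by this criterion, and with 1 well per gene no repeat of either distant integrin well was analysed here.

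The 2 integrin chains were also set against each other within each sample, which takes the reference genes out of the value. The log2 ratio of ITGB1 to ITGAV ran at P3 from −6.6 to 1.54 with a median of 0.95, and at P6 from 0.33 to 8.32 with a median of 1.09. The lowest P3 ratio belonged to donor 1-22 and the highest P6 ratio to donor 13-21, while the other 16 samples lay between 0.33 and 2.01. The mean ratio was 0.15 ± 2.56 (SD, n = 9) at P3 and 1.85 ± 2.48 (SD, n = 9) at P6, a difference of 1.70 (exact permutation test, two-sided, p = 0.227, adjusted over 6 pairs of genes p = 0.582), higher in 5 of 9 donors. In the 7 donors without either distant well the ratio was 1.00 ± 0.406 (SD, n = 7) at P3 and 1.14 ± 0.479 (SD, n = 7) at P6, with 3 donors higher and 4 lower. Within these 7 donors the change ran from −0.30 in donor 6-21 to 0.83 in donor 6-22.

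**Figure D2:**
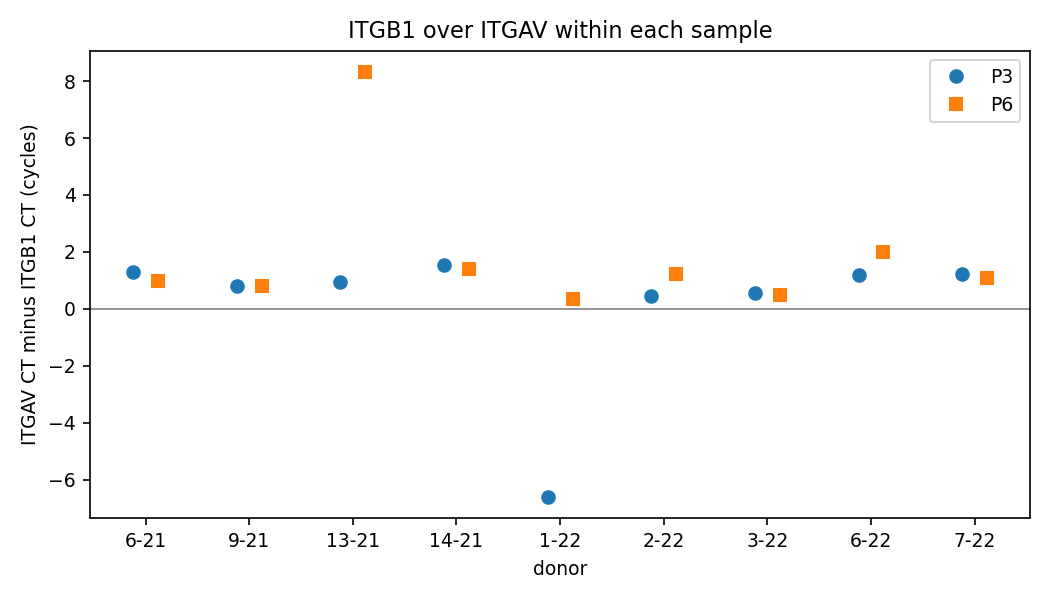
ITGAV CT minus ITGB1 CT (cycles) in each of 9 donors at P3 (circles) and P6 (squares), which is the log2 ratio of ITGB1 to ITGAV without normalization. All samples but those of donor 1-22 at P3 (−6.6) and donor 13-21 at P6 (8.32) lie between 0.33 and 2.01.

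VIM was the earliest transcript of the array to cross the threshold in both passages, with ranks of 1 of 84 by mean CT at P3 and at P6. Assays differ in amplicon length and efficiency, which are not given in the sources used here, so this order is one of cycles and not of molecules. VIM was detected at 11.03 to 11.77 cycles at P3 and at 10.49 to 11.76 cycles at P6, a span of 1.28 cycles over all 18 samples. Its −ΔCT at P3 was lowest at 2.83, with a median of 3.39 and a highest value of 3.94, and at P6 the lowest value was 3.23, the median 3.53 and the highest 3.98. No sample stood apart, and the P6 samples lay almost wholly within the span of the P3 samples.

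The mean VIM level was 3.41 ± 0.354 (SD, n = 9) at P3 and 3.53 ± 0.246 (SD, n = 9) at P6, a difference of 0.12 (SE 0.244, 95% interval −0.40 to 0.63; limma, adjusted p = 0.968). This interval runs from 1.32-fold lower to 1.55-fold higher at P6. VIM was higher at P6 in 5 donors and lower in 4, and the within-donor difference lay between −0.22 in donor 6-21 and 0.56 in donor 7-22. All 9 donors thus stayed within 2-fold. The sign of the mean difference turned to −0.05 when the median CT of the detected genes replaced the reference genes.

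MMP2, the secreted gelatinase, was detected at 16.05 to 21.06 cycles at P3 and at 10.89 to 22.16 cycles at P6. Its −ΔCT at P3 ran from −6.85 through a median of −3.01 to −1.61. At P6 it ran from −7.65 through a median of −2.39 to 3.81. The P6 samples reached both above and below all P3 samples. The mean was −3.40 ± 1.77 (SD, n = 9) at P3 and −1.97 ± 3.26 (SD, n = 9) at P6, a difference of 1.43 or 2.69-fold (SE 1.19, 95% interval −1.07 to 3.93; limma, adjusted p = 0.873), with 5 donors higher and 4 lower.

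The MMP2 difference was made up of a few large changes of both signs. MMP2 was 8.64 higher at P6 in donor 7-22 (399-fold, from a CT of 20.96 to 12.34) and 6.85 higher in donor 9-21 (115-fold, from 17.62 to 10.89). In donor 1-22 it was 2.73 higher (6.62-fold), and in donor 6-22 the difference was −5.43 (43.0-fold lower, from a CT of 16.99 to 22.16). The other 5 donors stayed within 2-fold, between −0.63 and 0.82. The difference was 0.75 without donor 9-21, 0.53 without donor 7-22 and 2.29 without donor 6-22 (95% interval −0.04 to 4.61; limma, adjusted p = 0.697). Without donors 9-21 and 7-22 together, a choice made after their values were seen, it was −0.37 (limma, adjusted p = 0.992).

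The samples with the highest and lowest MMP2 values were also those that stood apart in more genes of the array than any other sample. The P6 sample of donor 9-21 stood apart in 9 of 84 genes, the P6 sample of donor 7-22 in 6, the P3 sample of donor 7-22 in 5 and the P6 sample of donor 6-22 in 4. The other 14 samples stood apart in at most 3 genes each. MMP2 was not among these genes in any sample, but the criterion seeks 1 sample apart from the rest and can miss several. At P6 most MMP2 values ran from −3.94 to −1.75. Those of donors 9-21 (3.81), 7-22 (1.79) and 6-22 (−7.65) lay outside. What part the other deviations of the samples that stood apart most often had in the MMP2 values was not tested.

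**Figure D3:**
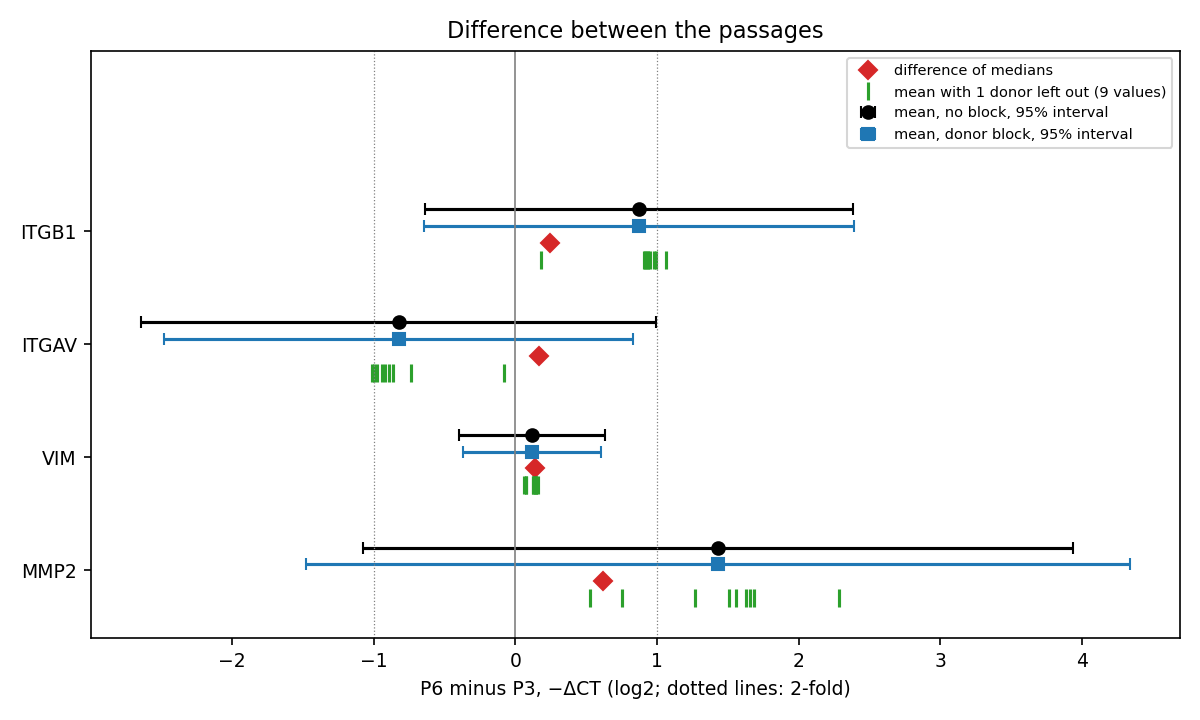
Difference P6 minus P3 in −ΔCT (log2) for the 4 genes: the mean with its 95% interval without (black) and with (blue) the donor as a block, the difference of the medians (red), and the mean with each of 9 donors left out in turn (green). All intervals include 0, the VIM interval lies within 2-fold (dotted lines), and 1 green mark each for ITGB1 (0.18) and ITGAV (−0.08) lies close to 0.

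The 4 genes differed in how much they varied between donors. Among the 51 genes detected in all 18 samples, the median SD over donors was 0.968 at P3 and 1.44 at P6. VIM ranked 3 of 51 at P3 and 2 of 51 at P6, counted from the least variable. MMP2 was among the more variable genes in both passages, with ranks of 39 and 46, and its P6 range of 11.46 cycles corresponds to 2820-fold. ITGB1 ranked 43 at P3 and 5 at P6, whereas ITGAV ranked 14 at P3 and 40 at P6. These 2 ranks changed places with the 1 distant well in each gene, since without it the SD of ITGB1 at P3 was 0.594 and that of ITGAV at P6 was 0.676.

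**Figure D4:**
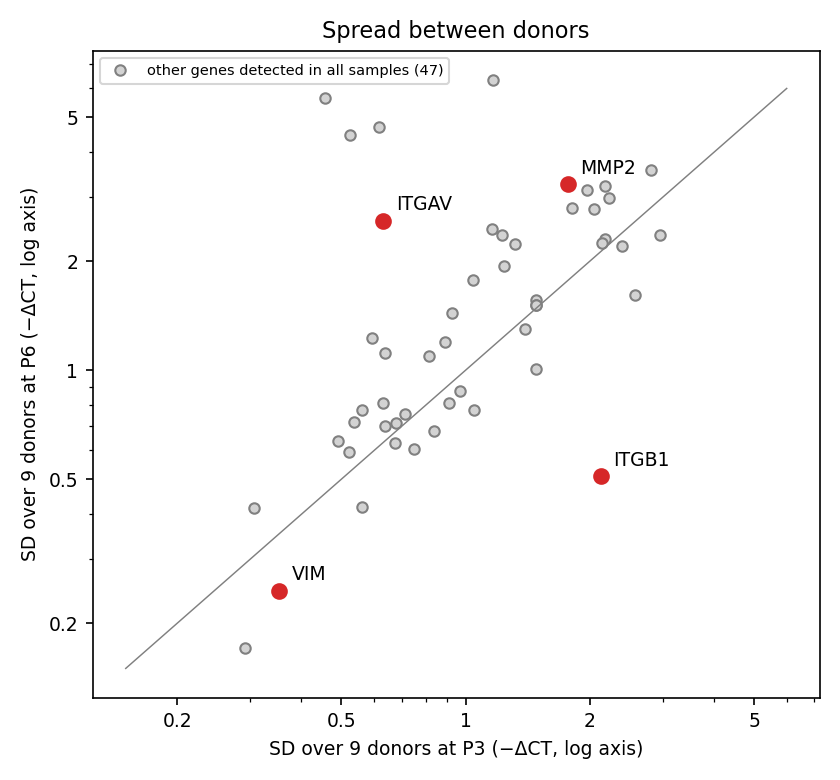
SD of −ΔCT over 9 donors at P3 (x axis) and P6 (y axis), both on log axes, for the 4 genes (red) and the other 47 genes detected in all samples (grey), with the line of equal spread. VIM lies at the low end (0.354 and 0.246), MMP2 at the high end (1.77 and 3.26), and ITGB1 (2.12 and 0.510) and ITGAV (0.631 and 2.58) lie far from the line on opposite sides.

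Whether a donor that was high at P3 was also high at P6 was examined over the 9 donors in 4 relations. For ITGB1, Pearson's r was 0.13 (exact permutation p = 0.608, adjusted p = 0.608) and Spearman's rho was 0.52 (exact permutation p = 0.162, adjusted p = 0.324), and r was 0.60 without the 2 donors farthest from the P3 median. For ITGAV, r was 0.50 (exact permutation p = 0.0347, adjusted p = 0.139) and rho was 0.60 (exact permutation p = 0.0968, adjusted p = 0.324), but r was 0.08 without donors 1-22 and 13-21, so that the relation rested on those samples. For VIM, r was 0.56 (exact permutation p = 0.113, adjusted p = 0.225) and rho was 0.43 (exact permutation p = 0.250, adjusted p = 0.333), with r at 0.08 without donors 9-21 and 1-22. For MMP2 both measures were below 0, with r at −0.34 (exact permutation p = 0.366, adjusted p = 0.488) and rho at −0.15 (exact permutation p = 0.708, adjusted p = 0.708), and r at −0.08 without donors 7-22 and 1-22. No relation passed after adjustment.

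The other 5 within-sample ratios between the 4 genes were tested in the same way. The mean log2 ratio changed by 0.76 for ITGB1 to VIM, by −0.94 for ITGAV to VIM, by −0.56 for ITGB1 to MMP2, by −2.25 for ITGAV to MMP2 and by −1.31 for VIM to MMP2. The adjusted p of all 6 ratios lay between 0.582 and 0.680 (exact permutation tests, two-sided). The medians of ITGAV to VIM and of VIM to MMP2 moved the other way, by 0.51 and 0.18. Unequal change of any of the 4 genes against another was therefore not shown in these donors.

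Genes whose level varied most like each of the 4 over the 18 samples were named by Spearman's rho of −ΔCT after the passage means were removed, among the 50 other genes detected in all samples. These values describe samples that share donors and reference genes, and several differed between the passages. The genes named are the highest of 50, and whether their rho exceeds that of unrelated genes was not tested. ITGB1 varied most like ICAM1, an adhesion molecule bound by leukocyte integrins (rho 0.57), MCAM, the adhesion molecule CD146 (0.53), and the Notch ligand JAG1 (0.43, with 0.83 at P3 and 0.17 at P6). ITGAV varied most like ACTA2, the smooth muscle actin (0.65), ICAM1 (0.61) and the fucosyltransferase FUT1 (0.56). ICAM1 thus stood near the top for both integrin chains. VIM varied most like TGFB3, a TGF-β ligand (0.65), GTF3A, a factor for 5S ribosomal RNA transcription (0.61), and ANPEP, the surface peptidase CD13 (0.55). The last 2 were alike mainly at P3, where rho was 0.97 for GTF3A and 0.85 for ANPEP, against 0.20 and 0.00 at P6. MMP2 had NUDT6, of the Nudix hydrolase family (0.59), then the transcription factor MITF (0.38) and the bone matrix protein gene BGLAP (0.33), whose rho differed in sign between P3 (−0.22) and P6 (0.48). Among the 4 genes themselves, ITGB1 and ITGAV gave a rho of −0.02 over the 18 samples, with 0.27 at P3 and 0.72 at P6, and ITGB1 and VIM gave −0.53. The passage means removed include the distant wells. The ITGB1 mean at P3 was −1.73 with and −1.05 without that of donor 1-22. The ITGAV mean at P6 was −2.71 with and −1.87 without that of donor 13-21. The values of the integrins over the 18 samples therefore depend in part on these wells.

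The setting of the 4 genes was described by 13 other adhesion and matrix genes of the array: integrin chains and ligands, TGF-β ligands held in the matrix, integrin signalling proteins and cytoskeletal genes. At P6 the mean was higher in 9 and lower in 4 of them, beside 39 higher and 45 lower of all 84 genes. Their median difference was 0.22, beside −0.05 over all 84 genes. Among the 9 higher genes, COL1A1, NES and THY1 were lower at P6 once the donor of an undetected P3 well was left out. The count is therefore no sign of a common rise. The limma test called 0 of the 13 after adjustment and 1 at an unadjusted p under 0.05. That gene was ITGAX, the αX integrin chain of myeloid cells and one of the leukocyte markers above, which was detected in 8 of 9 samples at P3 and 3 of 9 at P6. Its difference was −4.91 with wells beyond the CT limit set to that limit (SE 1.28; limma, adjusted p = 0.0519, or 0.0238 with the donor as a block). The exact permutation test gave an adjusted p of 0.0518, and the methods' t-test on linear values gave 0.833. The P3 well of donor 1-22 was far earlier than the others, at a CT of 22.3. The difference of the medians was −5.10.

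The collagen chain COL1A1 differed by 2.06 (limma, adjusted p = 0.873), the intermediate filament nestin, NES, by 1.66 (adjusted p = 0.873) and the surface glycoprotein THY1 by 1.20 (adjusted p = 0.910). Each of these 3 genes was detected in 9 of 9 samples at P6 and in 8 of 9 at P3. With the donor of the 1 undetected well left out, the differences were −0.51 for COL1A1 (donor 2-22), −0.11 for NES (donor 7-22) and −0.31 for THY1 (donor 9-21), and all 3 changed sign. The other 9 genes lay between −0.41 and 0.61, with 6 higher and 3 lower and a lowest limma adjusted p of 0.873. ICAM1 was 0.51 higher at P6 (SE 0.634; limma, adjusted p = 0.873) and was higher in 8 of 9 donors. RHOA, a GTPase that acts on actin, and PTK2, the focal adhesion kinase, differed by 0.00 and 0.05.

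**Figure D5:**
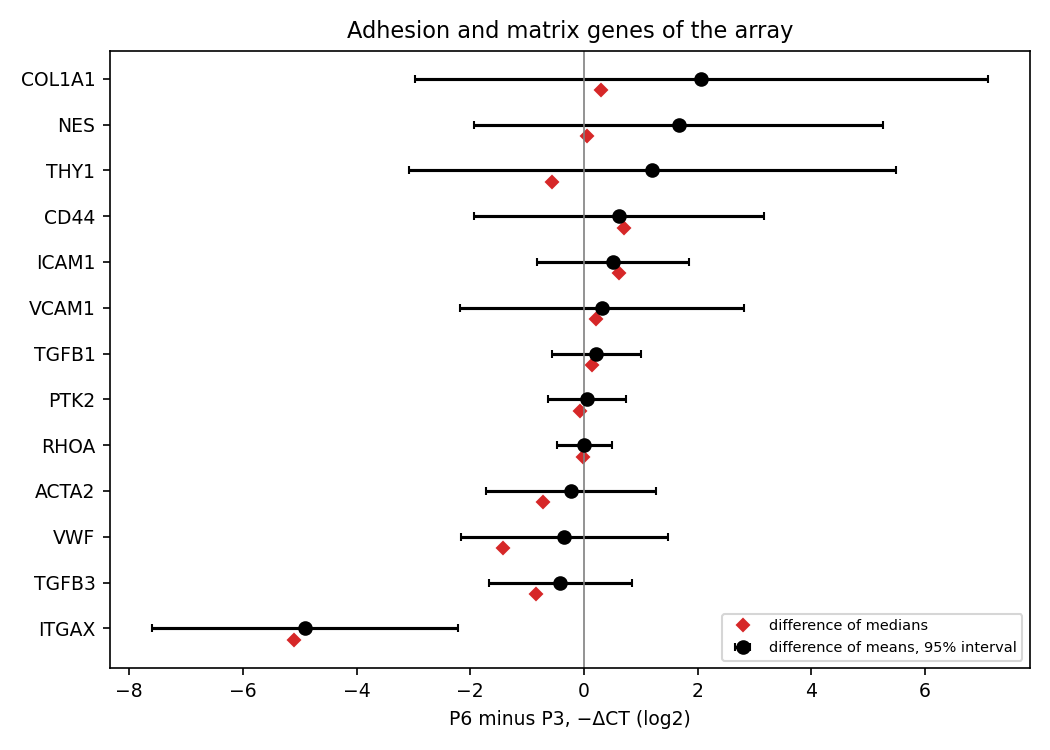
Difference P6 minus P3 in −ΔCT (log2) for 13 adhesion and matrix genes of the array, with the difference of the means and its 95% interval (black) and the difference of the medians (red). The ITGAX interval alone lies wholly below 0, and the COL1A1, NES and THY1 intervals are the widest of the list.

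Conditioned medium of some of these cultures was also examined by mass spectrometry in the study. Proteins assigned to VIM, MMP2 and ITGB1 were listed there. The protein amounts were not analysed here, so whether they moved with the transcripts was not tested.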

How the data were processed

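RT-qPCR arrays were run by the authors on RNA of 9 donors at P3 and P6 (18 samples, separate dogs within a passage), with SYBR Green assays on a Rotor-Gene Q and 1 well per gene. The deposited matrix holds raw CT values for 96 wells: 84 genes, 5 reference genes and 7 control wells. A second deposited table holds mean CT and ΔCT per passage, from which the 16 means of the 4 genes recomputed here differed by at most 0.00446. The authors' fold changes were not used. CT values above 35 or undetermined were set to 35 and normalized to the geometric mean of the reference genes.

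Passages were compared with limma 3.58.1 in R 4.3.3 without a donor term, as the study's methods use an unpaired test, two-sided, with Benjamini-Hochberg adjustment over 84 genes at 0.05. The script was tested on simulated data. Ratios and correlations were tested exactly with numpy 2.4.6 and scipy 1.17.1, over 48620 divisions of the samples or 362880 pairings of the donors. Alternatives covered the donor block, the test, the CT limit (32 or 40), the reference, the filter, the medians and the donors included. The labels give both passages of a donor the same dog: over 51 genes, the deviations of a donor's 2 samples correlated at 0.0859 to 0.753 (median 0.473), above 0.1 in 8 of 9 donors. Values were named for the 4 genes, for adhesion list genes with an unadjusted p under 0.05 or a difference of at least 1, and for the 3 genes most like each of the 4. Named outside this rule were the reference genes, the cell type markers, RHOA and PTK2 of the adhesion list, and ABCB1 and GDF15. The 4 genes were chosen by symbol and not by their values. Earlier results of these data were nevertheless known when the genes and lists were chosen. The array number and the single wells limit precision, and no amplification efficiency is given in the sources used here.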

Additional observations from a re-analysis of the deposited data

Results flagged for a closer look

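Of 28 groups of 9 samples examined, for the 4 genes, 4 genes of the adhesion list and 6 ratios in each passage, 9 held 1 sample far from the rest by Dixon's criterion. Chance flags about 1 in 20 independent groups, but these groups share wells, and over the array 40 of 168 groups (23.8%) held such a sample, so the count of 9 is no result about these genes. Both distant integrin wells were among them: ITGB1 at P3 in donor 1-22, with a −ΔCT of −7.20, and ITGAV at P6 in donor 13-21, at −9.39. The same wells set apart the ratio of ITGB1 to ITGAV in donor 1-22 at P3 (−6.6) and in donor 13-21 at P6 (8.32), the ratio of ITGB1 to VIM in donor 1-22 at P3 (−11.14) and the ratio of ITGAV to VIM in donor 13-21 at P6 (−13.02). In the adhesion list, COL1A1 stood apart at P3 in donor 2-22 (−19.8), NES in donor 7-22 (−20.9) and THY1 in donor 9-21 (−20.4), in each case in a well without detection that was set to the CT limit. These 3 genes were named for a difference of at least 1, which that well produced, so their place here follows from the choice. No VIM or MMP2 group held such a sample by this criterion, which can miss several distant samples in 1 group, as for MMP2 at P6.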

How the results depend on the processing

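Each of the 4 differences was recomputed under 22 alternatives, and none passed the threshold under any that gives a test. ITGB1 ran from 0.18 to 1.34, ITGAV from −1.45 to 0.17, VIM from −0.05 to 0.18 and MMP2 from −0.37 to 3.78, the last as the log2 ratio of linear means in the methods' t-test. The sign turned for ITGAV with the medians (0.17), for VIM with the median of the detected genes as reference (−0.0478) and for MMP2 without donors 9-21 and 7-22 (−0.37). Donors named -21 alone and -22 alone gave 0.29 and 1.34 for ITGB1, and −1.45 and −0.32 for ITGAV. Leaving out 1 donor gave 0.18 to 1.07 for ITGB1, −1.01 to −0.08 for ITGAV, 0.06 to 0.16 for VIM and 0.53 to 2.29 for MMP2. With the donor as a replicate block the limma adjusted p was 0.741 for ITGB1, ITGAV and MMP2 and 0.862 for VIM, and for the 6 ratios the exact sign-flip tests gave adjusted p from 0.478 to 0.734. The block changed no call of these results.

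Of 84 genes, 1 was called in the fit as reported. The paired fit, the median of detected genes as reference and the filter at a mean CT of 30 called 2 each. The reference without ACTB and B2M, the exact permutation test, the methods' t-test, the donors named -21 alone, those named -22 alone and the set without donors 9-21 and 7-22 called 0 each, and leaving out 1 donor called 0 to 2. At an unadjusted p under 0.05 the exact permutation test called 5 genes and the methods' t-test 4.

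Among the ratios, the medians turned ITGAV to VIM (0.51) and VIM to MMP2 (0.18), and ITGB1 to MMP2 was 0.20 in the donors named -22 alone and −1.22 to 0.40 with 1 donor left out, with the sign turned without donor 9-21 or donor 7-22. The P3 to P6 correlation of ITGB1 ran from −0.045 to 0.74 with 1 donor left out, the lowest without donor 7-22. That of ITGAV ran from 0.41 to 0.57, and without donor 6-22 it passed the threshold (r = 0.52, exact permutation test, adjusted p = 0.0298). The cause of these shifts was not tested beyond the samples removed. With 1 well per gene, a difference between donors and an error of a single well cannot be told apart.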
